A study of Medicago truncatula with 15 samples.

Results

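The set described here holds 65 loci of the legume *Medicago truncatula* that were strongly leaf-biased in wild-type (WT) plants and that had a higher transcript level in the shoot apex of non-flowering *Mtsoc1* triple mutants than in the WT apex. Members were chosen on TPM (a transcript level scaled for transcript length and for library depth), for which the authors gave a single value per group. A locus was kept when its triple mutant apex value was at least 5 TPM, when (WT leaf + 1)/(WT apex + 1) was at least 4, and when (triple mutant apex + 1)/(WT apex + 1), called the gain below, was at least 2. Of 50021 loci, 14153 reached 5 TPM in the triple mutant apex and 603 of these were leaf-biased. The gain threshold left 65 members, 10.8% of the 603 leaf-biased loci, and 538 leaf-biased loci that were not kept. A limit of 150 loci was not reached, so no locus was dropped by it.

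The 15 libraries fell into 5 groups of 3, all in the R108 background and all from plants vernalized for 3 weeks and grown at 22 °C in days with 16 h of light. Fully expanded leaves (2 plants per library) and shoot apices (3 plants per library) came from 15-day-old WT plants and from 15-day-old *Mtsoc1a* plants, which carry a *Tnt1* retrotransposon insertion in *MtSOC1a*. Shoot apices (3 plants per library) came from 83-day-old plants of a line in which *MtSOC1a*, *MtSOC1b* and *MtSOC1c* had been edited by CRISPR-Cas9, with Cas9 under a constitutive promoter. The labels name this line *Mtsoc1-4* and the study's text *Mtsoc1-2*. It is a single edited line, its edited alleles still segregated, and only plants that had not flowered were sampled. The study's methods describe its libraries apart from the apex libraries of the 15-day-old plants. They do not say whether these were prepared together. By the study's genotyping, the non-flowering plants of this line were homozygous for edited alleles of all 3 genes. The sources differ on which apex samples included the upper stem: the labels give it for the triple mutant, and the study's methods for the 15-day-old plants. Genotype, plant age, dissection and any difference in library preparation therefore cannot be told apart in any comparison with the triple mutant. In bulk tissue, fewer cells of a kind and less RNA per cell cannot be told apart either.

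Leaves are the main site of photosynthesis, and a mature leaf cell devotes much of its messenger RNA to chloroplast proteins. The shoot apex holds the dividing stem cells that form leaves or, after the floral transition, flowers, and its youngest cells carry immature plastids. *SOC1* genes encode MADS-box transcription factors that promote flowering in Arabidopsis, and the *Medicago* study asked what changes in the apex when the 3 *MtSOC1* genes are edited.

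Estimated counts per library summed to between 30574854 and 38896407 in the 12 libraries of 15-day-old plants and to between 13224488 and 15891830 in the triple mutant. Below, CPM is the count relative to library size after TMM scaling, a between-library factor that was 0.591 to 0.669 in leaf and 1.27 to 1.41 in apex libraries, so leaf CPM are raised relative to apex CPM compared with plain library sizes. The targeted gene *MtSOC1a* (Medtr7g075870) had 8.69 to 9.47 CPM in WT leaf and 13.3 to 18.9 in WT apex, against 0 to 0.454 in *Mtsoc1a* leaf and 0.514 to 1.01 in *Mtsoc1a* apex. In the triple mutant the edited gene still gave 20.7 to 23.9 CPM. *MtSOC1b* had 1.81 to 2.01 CPM there against 1.51 to 3.36 in WT apex, and *MtSOC1c* 25.6 to 28.5 against 3.61 to 6.19. The study reports short deletions and, in *MtSOC1b*, a large inversion. The edits cannot be checked from these values, since counts over a whole locus do not show where in it the sequence changed. The 4 shoot apex markers (*MtTFL1c*, *MtFDa*, *MtLFY* and *HDL*) were at 0 in all 6 leaf libraries and summed to 9.10 to 15.4 CPM in WT apex, 9.43 to 16.4 in *Mtsoc1a* apex and 3.46 to 6.83 in the triple mutant, where *HDL* was at 0. The 7 flower markers summed to 48.8 to 63.5 CPM in the 6 leaf libraries, mostly from *AP3b*, *AGa*, *AP3a* and *SEP3a*, and to 2.42 to 3.26 CPM in the triple mutant apex against 2.93 to 7.18 in WT apex. The leaf marker *MtFTa1* overlapped between tissues, at 0.7 to 2.3 CPM in WT leaf and 0.21 to 1.03 in WT apex. In *Mtsoc1a* it had 0.332 to 2.52 CPM in leaf and 0.467 to 1.95 in apex. In the triple mutant apex it had 0.176 to 0.753 CPM, no higher than in WT apex. The part of all these markers in the results below was not tested.

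Across the members the gain ran from 2.01 to 11.0 with a median of 2.47. These values chose the loci and are given as a description. The median gain was 1.36 over the 538 leaf-biased loci that were not kept and 1.09 over all 14153 loci at 5 TPM or more. Of those 14153 loci, 369 (2.61%) had a gain of at least 2. The threshold of the gain did not fall in a gap. The last 3 members inside it were Medtr7g089970 (gain 2.012), Medtr6g029200 (2.008) and Medtr1g102810 (2.005), and the first 3 leaf-biased loci outside it were Medtr1g083110 (1.997), Medtr4g084620 (1.996) and Medtr4g101750 (1.989).

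**Figure D1:**
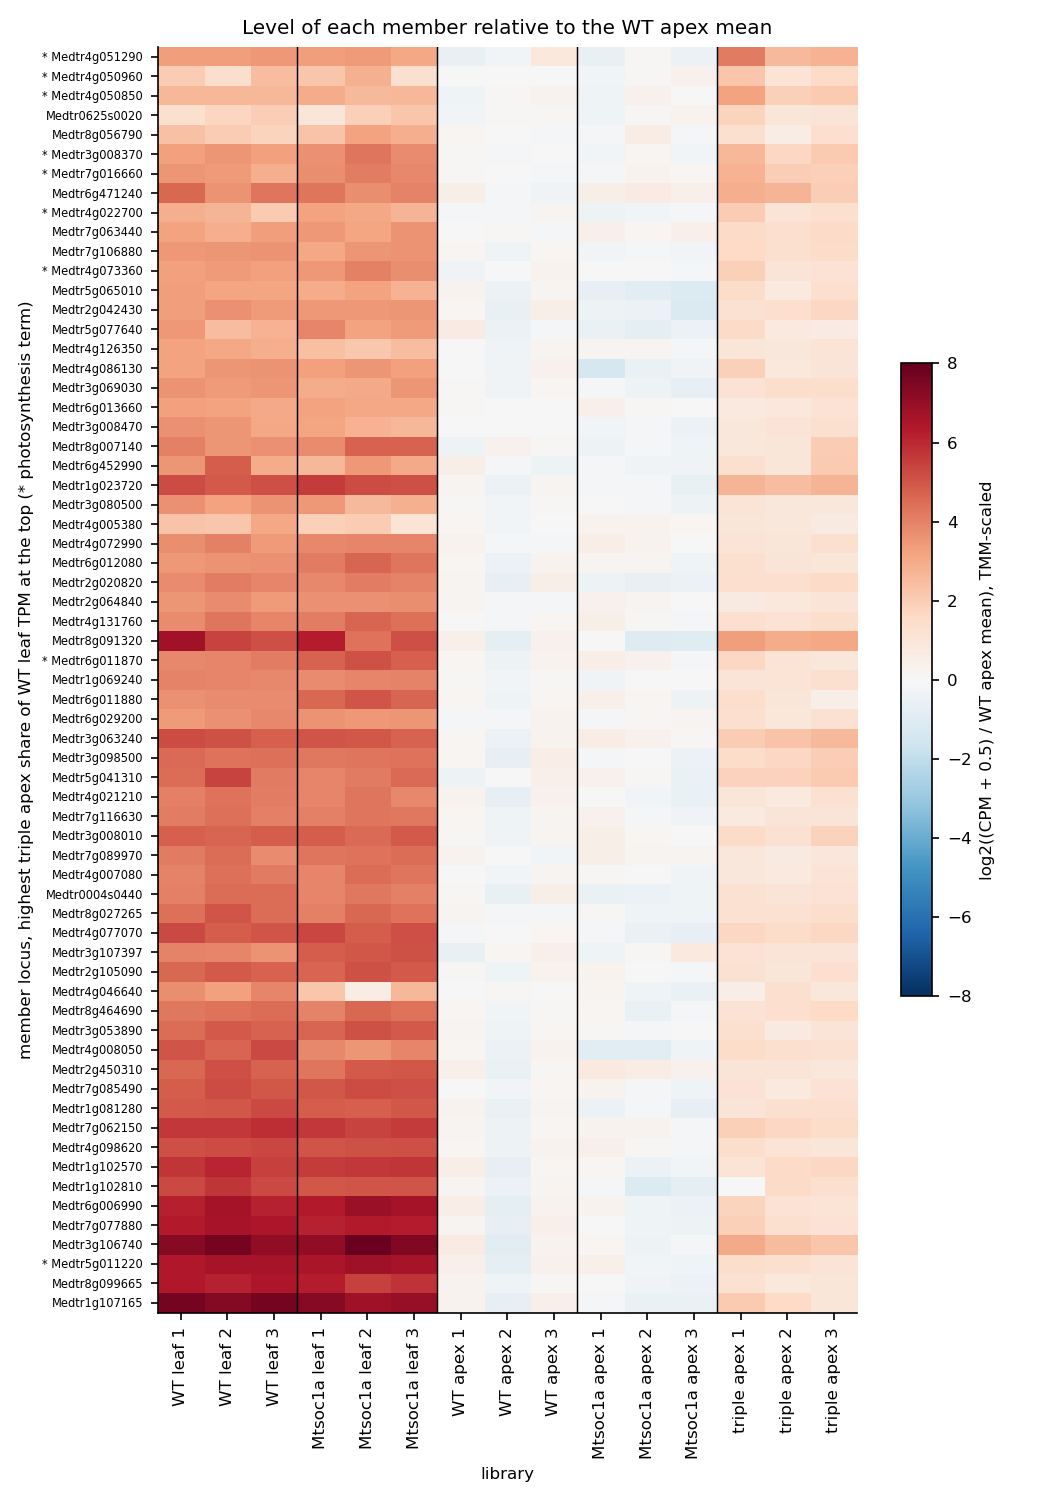
Level of each of the 65 members (rows) in the 15 libraries (columns) as log2((CPM + 0.5)/mean of WT apex), with rows ordered by the triple mutant apex share of the WT leaf TPM and photosynthesis-term members starred. The 3 triple mutant columns lie between the pale 15-day-old apex columns and the dark leaf columns for most rows, and their medians over the members are 1.34, 1.11 and 1.29.

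Per library, the members' median level was 1.11 to 1.34 above the WT apex mean in the triple mutant on the log2(CPM + 0.5) scale, against 0.305 to 0.484 for the leaf-biased loci not kept. The 3 WT apex libraries ranged from -0.29 to 0.19 on the same scale, and the 3 *Mtsoc1a* apex libraries from -0.26 to -0.02. All 3 triple mutant libraries therefore lay above all 6 apex libraries of the 15-day-old plants in the members' median. Leaf libraries reached 3.92 to 4.29. For 64 of 65 members every triple mutant library exceeded every WT apex library, where 20.7% of the 23359 loci with enough counts did so. The exception was Medtr1g102810, the last member by gain, with 4.02, 12.5 and 10.5 CPM in triple mutant libraries and 4.72, 2.76 and 4.75 CPM in WT apex. Every triple mutant library exceeded every *Mtsoc1a* apex library for 65 of 65 members, against 24.5% of all loci. High triple mutant values and low WT apex values chose the members, so no test was made of either difference.

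The level in the triple mutant apex relative to the leaf differed widely between members. In TPM, the triple mutant apex stood at a median of 31.6% of the WT leaf level, with a range of 3.52% to 216%. It lay above the WT leaf for 5 members, between 50% and 100% of it for 11, between 20% and 50% for 30, between 10% and 20% for 11, and under 10% for 8. Among the 538 leaf-biased loci not kept the median was 19.1%. Their gain under 2 and leaf bias of at least 4 hold them below the leaf, so this value is no contrast with the members. The share of leaf TPM includes the level already in WT apex, from 0.987% (Medtr1g107165) to 22.9% (Medtr4g126350) of WT leaf. Of the TPM gap between WT apex and WT leaf, the triple mutant apex reached 2.56% (Medtr1g107165) to 244% (Medtr4g051290). For Medtr4g126350, at 50.1% of the leaf TPM, it reached 35.3% of the gap. The order of triple mutant apex and leaf depends on scaling. With TMM-scaled CPM the triple mutant mean was above the WT leaf mean for 0 of 65 members, and with CPM on plain library sizes it was above for 4. Every triple mutant library lay above every WT leaf library for 0 members with TMM scaling, where 38.6% of all loci did so, and for 2 members (Medtr4g051290 and Medtr4g050850) with plain library sizes, where 61.7% of all loci did so. Against *Mtsoc1a* leaf with TMM scaling the count was likewise 0 of 65, where 38.5% of all loci had every triple mutant library above.

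**Figure D2:**
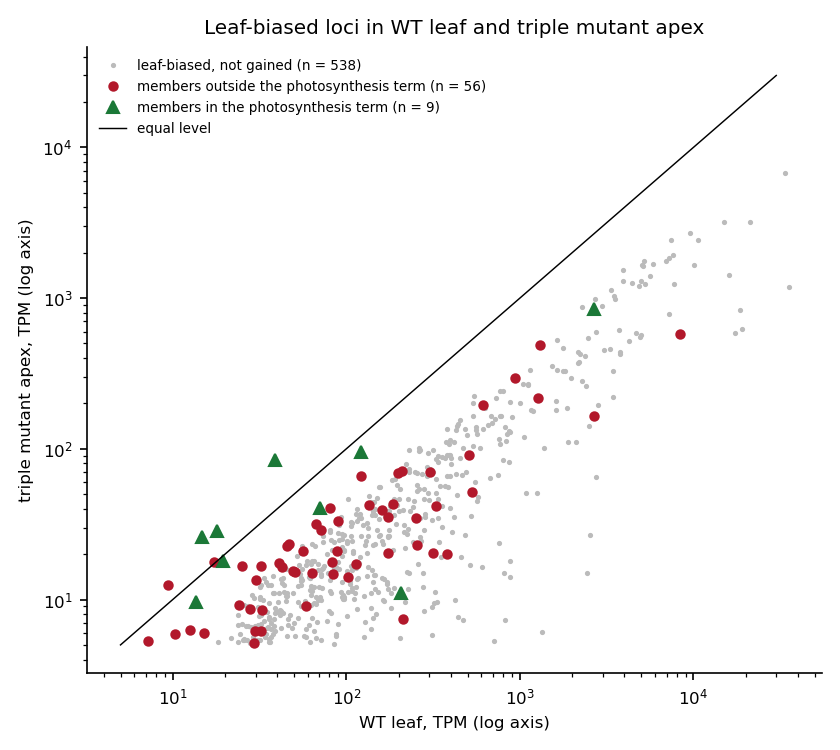
TPM in WT leaf (x axis, log) against TPM in the triple mutant apex (y axis, log) for the 538 leaf-biased loci not kept (grey), the 56 members outside the photosynthesis term (red) and the 9 members inside it (green triangles), with the line of equal level. On this TPM scale 5 members lie above the line, where the thresholds on gain and leaf bias let no grey locus lie.

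Roles for the members come from terms enriched among the loci that the study called higher in the triple mutant, a choice made on these same samples, so they are not independent evidence of a direction. Only loci that the study called higher could carry these terms, so a member outside a term is not shown to lack that role. The term photosynthesis held 24 loci, of which 9 were members. All 9 also fell under the light reaction of photosynthesis, the capture of light energy in the chloroplast's thylakoid membrane. Of the 9, 8 carried the term photosynthetic electron transport chain, 6 protein-chromophore linkage (the attachment of pigments such as chlorophyll to protein), and 3, namely Medtr3g008370, Medtr4g051290 and Medtr4g073360, electron transport in photosystem II, the complex that splits water. The other 15 photosynthesis-term loci all missed the leaf bias of 4, and in 14 of the 15 the triple mutant apex had more TPM than WT leaf. Members of the term thus differ from the other term loci in leaf bias because the rule requires it.

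Medtr4g051290 (electron transport in photosystem II) had the second highest gain, 9.88. Its level was 159, 53.5 and 59.6 CPM in triple mutant apex, 5.35, 6.93 and 15.3 in WT apex, 5.35, 8.74 and 5.88 in *Mtsoc1a* apex, 88.1, 90.9 and 96.8 in WT leaf and 88.7, 94.8 and 76.4 in *Mtsoc1a* leaf. On this TMM scale the first triple mutant library alone exceeded the leaf and the other 2 lay between apex and leaf. On plain library sizes all 3 exceeded it, at 205, 69.1 and 75.8 CPM against 57.3, 57.1 and 64.7 in WT leaf. Medtr4g050850 (photosynthetic electron transport) followed the same order of libraries, with 9.74, 3.63 and 4.2 CPM in triple mutant apex, 0.344, 0.634 and 0.816 in WT apex and 6.33, 6.35 and 6.24 in WT leaf, and on plain library sizes all 3 of its triple mutant libraries (4.69 to 12.6 CPM) likewise exceeded WT leaf (3.99 to 4.18 CPM). Medtr4g050960, annotated to the same term and to an organelle subcompartment, had the highest gain, 11.0, on few reads. Its estimated counts were 45, 13 and 25 in the triple mutant, 4, 4 and 4 in WT apex, and 0, 5 and 10.9 in *Mtsoc1a* apex.

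Medtr3g008370 (electron transport in photosystem II) had 17.2, 8.48 and 11.4 CPM in triple mutant apex against 2.5, 2.16 and 2.26 in WT apex and 26.3, 31.7 and 26.3 in WT leaf. Medtr7g016660 (photosynthetic electron transport and chromophore linkage) had 20.9, 11.9 and 11.2 CPM in triple mutant apex, 2.89, 2.71 and 2.45 in WT apex and 35.7, 32.9 and 23.5 in WT leaf. In both, triple mutant, WT apex and WT leaf libraries formed 3 groups without overlap on the TMM scale. On plain library sizes the triple mutant and WT leaf overlapped, at 11.0 to 22.2 against 17.1 to 19.9 CPM for Medtr3g008370 and 14.3 to 27.0 against 15.7 to 23.2 CPM for Medtr7g016660. Medtr4g022700, with the same terms as Medtr7g016660, stood at 70.5% of the WT leaf TPM, and Medtr4g073360 at 56.7%. Medtr5g011220, another locus of photosynthetic electron transport, kept much further from the leaf, with 11.1, 10.4 and 9.0 CPM in triple mutant apex, 5.48, 2.14 and 5.06 in WT apex and 384, 430.4 and 423 in WT leaf, or 5.33% of the leaf TPM.

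The first triple mutant library was the highest of the 3 for all 9 photosynthesis-term members. Its ratio to the mean of the other 2 libraries had a median of 1.80 and a range of 1.14 to 2.81 over these 9. Over the other 56 members, which are not shown to lack a role in photosynthesis, the median was 1.06, with a range of 0.350 to 2.15. The first library was highest for 28 of them. Over the 538 leaf-biased loci not kept it was 1.10. The ratio was at least 1.5 for 16 members, 8 of them in the photosynthesis term. With the first library left out, the remaining 2 triple mutant libraries averaged at least 2 times the WT apex mean for 52 of 65 members. With all 3 libraries the count was 56. These libraries fed the gain that chose the members, so both counts are descriptions only. By TPM, 2.61% of all loci at 5 TPM or more had a gain of at least 2. Both remaining libraries were above every WT apex library for 65 members and for 24.9% of all loci, on values that chose the members. When the rule was applied to CPM scaled to the TPM column, it kept 45 loci with all libraries, 42 of them members. Without the first triple mutant library it kept 36, 34 of them members. Fewer were kept without the second WT apex library, 34 loci with 29 members. With any other library of the 3 groups in the rule left out, 40 to 45 members were kept. The part of single libraries in the gain of single loci was not otherwise tested.

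**Figure D3:**
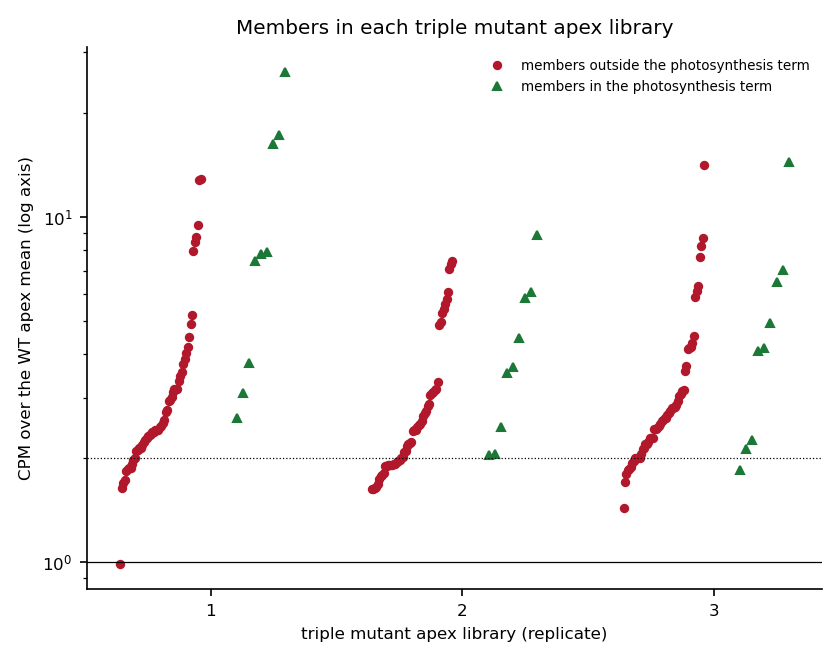
CPM of each member in the 3 triple mutant apex libraries over its WT apex mean (y axis, log), for the 56 members outside the photosynthesis term (red circles) and the 9 inside it (green triangles), sorted within each set, with solid and dotted lines at ratios of 1 and 2. The green points are highest in the first library, where 1 member (Medtr1g102810) lies at a ratio below 1.

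The most abundant members did not carry the highest gains. By TPM in the triple mutant apex the leading 5 were Medtr6g011870 (852 TPM), Medtr6g006990 (580), Medtr6g012080 (487), Medtr6g011880 (296) and Medtr3g053890 (218), and their gains were 2.45, 2.59, 2.20, 2.07 and 2.20. Medtr6g011870 carries the terms light reaction and chromophore linkage. It had 817, 546 and 489 CPM in triple mutant apex, 284, 195 and 316 in WT apex and 3797, 3906 and 4503 in WT leaf. Its identifier is followed in the numbering of the annotation by Medtr6g011880, with no listed locus between them, and 1 listed locus lies between Medtr6g011880 and Medtr6g012080. Over the 15 libraries their log2 levels had pairwise Pearson's r of 0.997 to 0.998, a description over libraries that include both tissues. Reads that such neighbouring loci share, if they are copies of each other, could be divided between them by the estimation of counts, which was not tested.

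Medtr6g006990, which was not in the photosynthesis term, was the most abundant member in leaf. It had 748, 492 and 473 CPM in triple mutant apex, 317, 127 and 263 in WT apex and 16686, 21829 and 15464 in WT leaf. Its triple mutant libraries were all above its WT apex libraries, at 6.95% of the leaf TPM. Medtr3g053890 had 330.2, 226 and 278 CPM in triple mutant libraries and 156, 107 and 152 in WT apex, again without overlap, at 17.1% of the leaf TPM.

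Loci outside the photosynthesis term also held high gains. Medtr8g091320 had a gain of 9.01, with 381, 299 and 329 CPM in triple mutant apex, 49.8, 22.3 and 48.1 in WT apex, 36.6, 17.9 and 18.9 in *Mtsoc1a* apex and 3991, 1652 and 1383 in WT leaf. Its 3 triple mutant libraries agreed more closely than its leaf libraries and were all above both 15-day-old apex groups. Medtr3g106740 had a gain of 4.76, with 39.2, 28.6 and 22.3 CPM in triple mutant apex, 7.2, 2.12 and 5.45 in WT apex and 775, 1002 and 677 in WT leaf, so that it stayed at 6.15% of the leaf TPM. Medtr1g023720, predicted to bind heme, the iron cofactor of many redox enzymes, had 11, 8.95 and 11 CPM in triple mutant libraries and 1.49, 0.765 and 1.54 in WT apex. Medtr3g063240, with a gain of 4.27, had 6.98, 8.13 and 10.3 CPM in triple mutant libraries and 1.53, 0.787 and 1.7 in WT apex.

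Medtr8g056790 and Medtr0625s0020, the latter predicted to bind tRNA, had gains of 7.76 and 5.22 but few reads. Medtr8g056790 had 17, 6 and 19 estimated counts in its triple mutant libraries, against 7, 3 and 0 in WT apex. Medtr0625s0020 had 32, 12 and 16 there, against 2, 8 and 7 in WT apex. In all, 4 members had fewer than 3 counts in at least 1 of the 15 libraries, and a low count makes their ratios uncertain.

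Further predictions from the study's annotation covered several kinds of protein. Medtr7g062150 and Medtr4g077070 were predicted hydrolases, enzymes that cleave bonds with water, with gains of 3.32 and 3.21, at 12.7% and 20.1% of the leaf TPM. Medtr7g063440 and Medtr3g069030 were predicted to act in cold acclimation, the gain of freezing tolerance after chilling, with gains of 2.70 and 2.66, and Medtr3g069030 also carried the term phenylpropanoid biosynthesis, the pathway to lignin and flavonoids. Medtr6g471240 was described as receptor-like protein 19 (gain 3.70), Medtr2g020820 as the kinetochore protein Spc24 (2.65) and Medtr4g005380 as a lipid-binding protein (2.21). Medtr2g105090 was predicted in the chloroplast envelope (2.37). None of the 65 was among 21 genes chosen for RT-qPCR, 93 candidate flowering genes or 220 loci homologous to genes bound by SOC1 in Arabidopsis. These lists are short against 50021 loci, so the absence says little about the members.

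By the chromosome number in their identifiers, 16 of 65 members (24.6%) were on chromosome 4, against 15.6% of the leaf-biased loci not kept and 14.4% of all loci, and 8 (12.3%) were on chromosome 6, against 6.13% and 7.59%. On chromosome 4, Medtr4g050850, Medtr4g050960 and Medtr4g051290 lay within 25 listed loci of each other, and all 3 carried the photosynthesis term. Other photosynthesis-term loci had identifiers in or beside this stretch but were not members, namely Medtr4g050860, Medtr4g051177, Medtr4g051270 and Medtr4g051370. Each of these had more TPM in the triple mutant apex than in WT leaf. Whether loci of this stretch share reads was not tested. On chromosome 3, Medtr3g008010, Medtr3g008370 and Medtr3g008470 lay within 29 listed loci.

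The leaf bias itself could be tested in libraries that the rule had not read, by comparing *Mtsoc1a* leaf with *Mtsoc1a* apex. All 65 members had enough counts to be tested, and 65 of 65 were higher in *Mtsoc1a* leaf than in *Mtsoc1a* apex at a fold of at least 2 and an adjusted p of 0.05 or less (edgeR's quasi-likelihood test, Benjamini-Hochberg adjustment over 23024 loci). Over all loci tested, 22.1% were called higher and 26.2% lower. The members' log2 fold changes ran from 2.32 to 7.83 with a median of 4.60, against a median of -0.10 over all loci tested. Every *Mtsoc1a* leaf library exceeded every *Mtsoc1a* apex library for 65 members, against 31.4% of all loci. On plain library sizes without TMM factors, 65 members were again called higher, with a median log2 fold change of 3.37. There 2402 of all loci were called higher and 12846 lower, against 5088 and 6040 with TMM. The median over all loci shifted to -1.32. In TPM, (*Mtsoc1a* leaf + 1)/(*Mtsoc1a* apex + 1) ran from 1.81 (Medtr4g005380) to 90.2 (Medtr3g106740). Medtr4g126350 (1.95) was also under a ratio of 2. Some others, such as Medtr6g013660 (3.20), were under the 4 that the rule asked of WT. Without the filter on low counts, 65 members were called as well.

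The largest leaf bias in *Mtsoc1a* was that of Medtr3g106740, at 669.6, 1161 and 841 CPM in leaf and 4.9, 3.29 and 4.06 in apex (log2 fold change 7.83 ± 0.48 SE, edgeR adjusted p = 3.5e-08). Next came Medtr1g107165 at 705, 495 and 562 CPM in leaf and 3.47, 2.62 and 2.51 in apex (7.73 ± 0.35, edgeR adjusted p = 1.0e-09). Medtr5g011220 of photosynthetic electron transport, Medtr6g006990 and Medtr7g077880 followed with log2 fold changes of 6.89, 6.85 and 6.72. These 5 most leaf-biased members stood at 3.52% to 6.95% of the WT leaf TPM in the triple mutant apex. The smallest leaf bias was that of Medtr4g005380 at 2.59, 2.84 and 1.24 CPM in leaf and 0.496, 0.467 and 0.418 in apex (2.32 ± 0.46, edgeR adjusted p = 0.00061). Medtr4g126350 (2.34 ± 0.16), Medtr6g013660 (3.05 ± 0.14), Medtr7g063440 (3.19 ± 0.15) and Medtr3g008470 (3.27 ± 0.16) came next, and these 5 stood at 38.7% to 66.2% of the WT leaf TPM. The share of leaf TPM follows from the gain and the leaf bias together. At similar gains a larger leaf bias gives a smaller share by arithmetic, so these shares are no separate result. All 9 photosynthesis-term members were called, with log2 fold changes from 3.58 ± 0.37 for Medtr4g050850 to 6.89 ± 0.38 for Medtr5g011220.

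Whether the single mutant apex shared the higher levels was asked by comparing *Mtsoc1a* apex with WT apex. WT apex values helped to choose the members. Of 65 members, 0 were called higher and 0 lower (edgeR), where 0.155% and 0.0709% of 22555 loci were. Only 62 of the members had enough counts in the 6 apex libraries compared, and the other 3 (Medtr0625s0020, Medtr4g050960 and Medtr8g056790) entered the fit through the triple mutant apex, where they were chosen to be high. DESeq2 called 0 in both directions too, and 12 members had an unadjusted p under 0.05, 3 of them higher and 9 lower, or 18.5% of the members against 12.1% of all loci. The members' log2 fold changes ran from -1.11 to 0.72 with a median of -0.11, against -0.01 over all loci. The lowest adjusted p was 0.222, for Medtr5g065010, at 18.3, 15.8 and 13.4 CPM in *Mtsoc1a* apex and 36.2, 20.6 and 33.4 in WT apex (-0.92 ± 0.26, edgeR). These groups did not overlap, nor did those of Medtr5g077640 and Medtr3g008470, both lower in *Mtsoc1a*, or Medtr7g063440, which was higher. All *Mtsoc1a* apex libraries were above all WT apex libraries for 1 member (8.26% of all loci) and below them for 3 (8.29%). The second WT apex library was the lowest of its group for 46 of 65 members and for 367 of the 538 leaf-biased loci not kept. Without it, 2 members were called lower in *Mtsoc1a* apex, where 0.169% of all loci were, Medtr5g065010 (-1.14 ± 0.20, edgeR adjusted p = 0.0266) and Medtr2g042430 (-1.05 ± 0.23, edgeR adjusted p = 0.0458).

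In leaves, 0 members were called higher and 1 lower in *Mtsoc1a* than in WT (edgeR), where 0.287% and 0.178% of 23024 loci were, and WT leaf values helped to choose the members. At an unadjusted p under 0.05, 9 members were higher and 7 lower, or 24.6% of the members against 12.7% of all loci. The member that fell was Medtr4g008050, at 36, 29.1 and 37.6 CPM in *Mtsoc1a* leaf and 82.2, 63.1 and 99.8 in WT leaf (-1.24 ± 0.24, edgeR adjusted p = 0.0360). All 3 mutant libraries were below all 3 WT libraries. The same locus had 0.927, 0.911 and 1.53 CPM in *Mtsoc1a* apex, 2.39, 1.38 and 2.63 in WT apex, and 6.63, 5.85 and 5.59 in the triple mutant apex. The call in leaf was lost without WT leaf library 1, without WT leaf library 3, and without any of the 3 *Mtsoc1a* leaf libraries, with an edgeR adjusted p of up to 0.104, while the log2 fold change stayed between -1.40 and -1.09. Tested by transcripts, the call was lost too. The *Mtsoc1a* effect in leaf was called different from that in apex for 0 members (edgeR interaction term, and 0 with DESeq2), where 0.0347% of loci were called with a higher and 0.0261% with a lower effect in leaf, and 11 members (16.9%, against 8.8% of all loci) had an unadjusted p under 0.05.

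The 3 neighbouring loci on chromosome 6 were higher in each *Mtsoc1a* leaf library than in each WT leaf library without being called. Medtr6g011870 had 6739, 8882 and 7283 CPM in *Mtsoc1a* leaf against 3797, 3906 and 4503 in WT leaf (0.92 ± 0.22, edgeR adjusted p = 0.0826), and Medtr6g011880 and Medtr6g012080 had log2 fold changes of 1.03 ± 0.22 (edgeR adjusted p = 0.0543) and 0.80 ± 0.23 (edgeR adjusted p = 0.144). DESeq2 called Medtr6g011880 higher (1.03 ± 0.22, adjusted p = 0.000578). All *Mtsoc1a* leaf libraries were above all WT leaf libraries for 7 members (6.67% of all loci) and below them for 8 (8.44%). The 7 included 4 photosynthesis-term loci, Medtr3g008370, Medtr7g016660, Medtr4g073360 and Medtr6g011870.

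**Figure D4:**
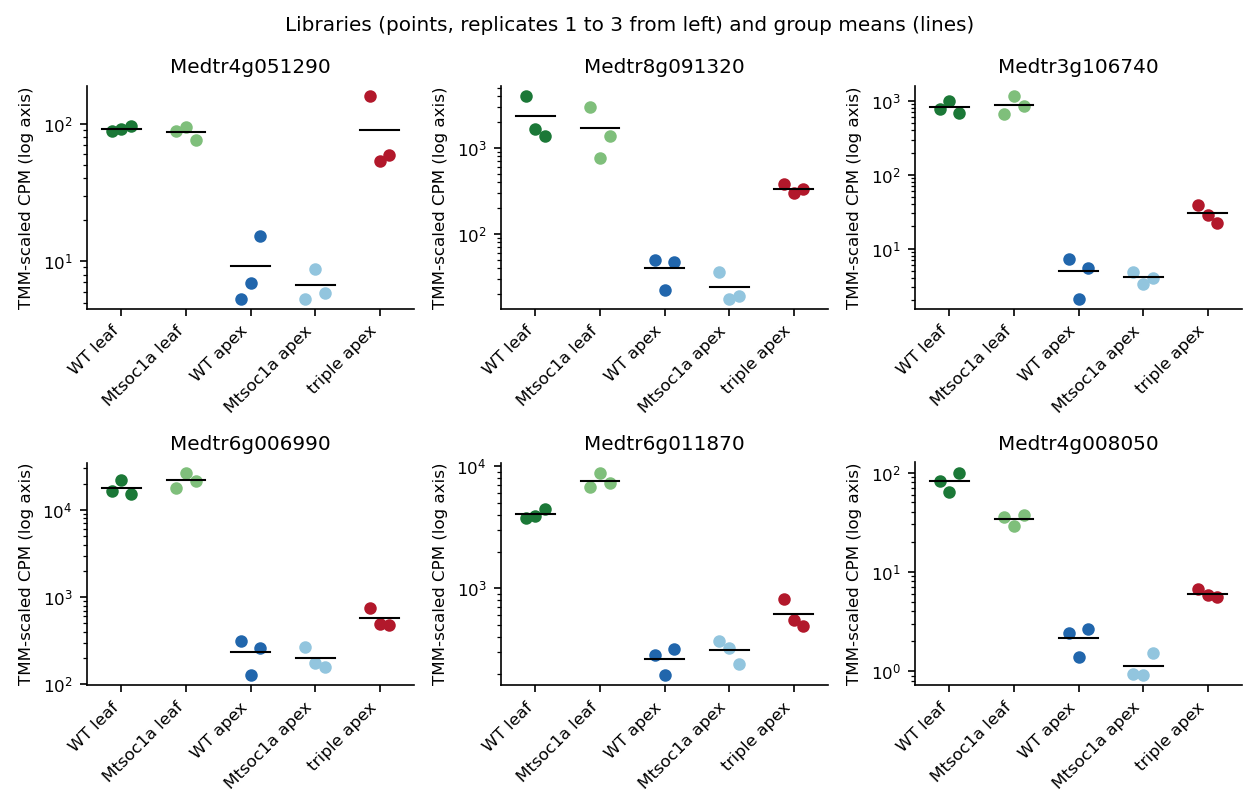
TMM-scaled CPM (y axis, log) of 6 members in each library (points) with the group mean (line), by group. Triple mutant apex libraries lie above both 15-day-old apex groups in all 6 panels, reach the leaf for Medtr4g051290 alone on this scale, and for Medtr4g008050 the *Mtsoc1a* leaf points (29.1 to 37.6 CPM) lie below the WT leaf points (63.1 to 99.8).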

How the data were processed

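Per the labels and the study's methods, the authors cleaned reads (fastp), quantified them with Salmon 0.8.2 on the A17 reference transcripts (Mt4.0v2) although the plants were R108, and used DESeq2 1.24.0. The deposited estimated counts (57124 transcripts, 15 libraries) were summed to 50021 loci and rounded. The deposited TPM table holds a single value per group, so TPM carries no error. The members, lists and tests were chosen with earlier results of these data known.

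Loci were tested in R 4.3.3 with edgeR 4.0.16 (TMM, a minimum count of 10, robust quasi-likelihood test) and called at a fold of at least 2 and an adjusted p (Benjamini-Hochberg, all loci tested) of at most 0.05. The 12 libraries of 15-day-old plants shared a fit for leaf against apex and for leaf against leaf, and the 9 apex libraries another. SE is the standard error of the log2 fold change. Fits were tested on simulated data. Replicates were separate pools of plants. Between *Mtsoc1a* and WT leaves, libraries with the same replicate number deviated together (r of 0.369, 0.419 and 0.103). The main tests quoted did not use these numbers as pairs. An alternative fit with a replicate block, which also covered the apex libraries, made the same calls of members. In that fit Medtr4g008050 in leaf had an edgeR adjusted p of 0.00932.

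Members were named by rule: the 10 highest gains, the 5 highest triple mutant TPM, the 5 largest and 5 smallest leaf biases in *Mtsoc1a*, the photosynthesis-term members, those called in *Mtsoc1a*, and, since the limit of 150 was not reached, the 3 loci on each side of the gain threshold. Others named were chosen after their values were seen or for a predicted function, taken from the study's annotation with a confidence above 0.5. Classes by product name were not used here, since the gene table at hand shares no identifiers with the files. Alternatives were DESeq2 1.42.0 and its size factors, no filter, no fold threshold, transcripts, a replicate block, fewer libraries and plain library sizes. Plain library sizes, and all alternatives for the interaction and for the counts of triple mutant libraries above WT, were chosen after seeing the data. No sequence is printed.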

Additional observations from a re-analysis of the deposited data

How the results depend on the processing

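The 65 calls of members higher in *Mtsoc1a* leaf than apex were made under every alternative run, and 324 of 324 alternative values for the 27 members named by rule were called higher. In *Mtsoc1a* apex against WT apex, leave-one-out fits called 0 to 2 members lower. In *Mtsoc1a* leaf against WT leaf, members called higher were 1 with DESeq2, 1 with no filter, 2 with only the libraries compared and 0 to 2 with a library left out. Members called lower were 2 with no fold threshold, 0 with transcripts and 0 to 1 with a library left out. The cause was not tested. Over all loci, DESeq2 called 170 higher and 89 lower in *Mtsoc1a* apex against 35 and 16 with edgeR, 53 and 29 with no filter, 10 and 5 with only the libraries compared, 2 and 2 by transcripts, 1 and 4 without WT apex library 1 and 144 and 39 without WT apex library 2. In leaf, DESeq2 called 201 and 177 against 66 and 41, no fold threshold 112 and 67, and only the libraries compared 38 and 9. For the interaction DESeq2 called 110 and 106 against 8 and 6. The interaction of *Mtsoc1a* with tissue called 0 members under all settings (edgeR, 11 at an unadjusted p under 0.05, and DESeq2 0). The rule on CPM scaled to TPM kept 45 loci, and 34 (without WT apex library 2) to 60 (without WT apex library 3) with a library left out, 36 without triple mutant library 1. A pseudocount of 0.5 kept 86. Members above the WT leaf mean in the triple mutant were 0 with TMM, 4 on plain library sizes and 5 by TPM, by construction of the scaling. Members with every triple mutant library above every WT apex library were 63 on plain library sizes (14.7% of all loci) and 64 to 65 with a library left out (24.1% to 25.9% of all loci), on values that chose the members.

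With a replicate block, 65 members were called higher in *Mtsoc1a* leaf than apex, 0 higher and 0 lower in *Mtsoc1a* apex against WT, and 0 higher and 1 lower in leaf, so the block changed no call of a member. Same-numbered libraries did not deviate together between *Mtsoc1a* leaf and apex (r of -0.038 to 0.089) or between *Mtsoc1a* and WT apex (r of -0.279 to 0.173). Whether same-numbered samples were grown or harvested together cannot be read from these values. With 3 libraries per group and a lower depth in the triple mutant, members with few counts give imprecise ratios.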
